A study of Mus musculus with 2 samples.

Results

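Interferon-stimulated genes are the genes whose transcription rises when a cell senses interferon, and they were examined here as a set of 41 named mouse genes. The members are a list of symbols, drawn up with earlier results of these data known: a probe belonged to a member when its RefSeq accession was listed for that symbol. Of the 41 genes, 39 had a matched probe among the 20144 genes matched on the array, and 37 were detected above background on both arrays (measured); Mx1 and Mx2 had no matched probe and were not analysed here. Expression was measured on 1-colour (Cy3) Agilent arrays in mouse primary keratinocytes, the main epithelial cell of the skin surface, with the note P3, whose meaning the labels do not give. The Rac3-KO array, named as the control, carried RNA of cells labelled as lacking Rac3, and the second array RNA of cells labelled as lacking both Rac1 and Rac3 (Rac1Rac3-DKO). Both groups thus share the loss of Rac3 by their labels, and no age, treatment, number of pooled animals or driver of the deletion is stated there. Rac1 and Rac3 encode small GTPases that relay signals to the actin cytoskeleton. With 1 array a genotype there were no replicates, so no difference below has a replicate check and none was tested.

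Interferons are secreted proteins that warn cells of virus. Type I interferons act through the receptor pair Ifnar1 and Ifnar2 and the kinases Jak1 and Tyk2, which activate Stat2; Stat2 and Irf9 then act in a complex that binds the interferon-stimulated response element (ISRE) of target promoters. Interferon gamma, made mostly by T cells and NK cells, acts through Ifngr1 and Ifngr2 and targets promoters that hold the gamma-activated site (GAS). In skin, keratinocytes respond to both and also make the epithelial interferon Ifnk, while macrophages, fibroblasts and endothelial cells carry the same response.

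The response element was looked for in the promoters of the members. RefSeq promoter windows (GRCm38.p6) were present for 32 members, 37 windows in all, and the 250 bases before each start were searched on both strands. The ISRE core was written as GAAANNGAAA, which reads TTTCNNTTTC on the other strand. It occurred in 16 of the 32 members, against 3.46% of all 27025 genes with a window and 2.98% of all 32851 windows. The GAS core, written as TTCNNNGAA, occurred in 7 of the 32 members (21.9%) against 8.13% of all genes, and 1 of its 8 matches overlapped an ISRE match. The promoters printed next were chosen to show overlapping ISRE cores (Isg15), a pair of separate ISRE cores (Ifit1), single cores in genes at the upper end of the differences (Rsad2, Gbp2), and members that differed in direction from the rest or from a neighbour (Cxcl9, Cxcl10, Tap1). Each is the 250 bases before the start, 5′ to 3′ on the strand of the gene, and capitals mark the ISRE core.
Isg15 (chr4:156200819-156201068, minus strand): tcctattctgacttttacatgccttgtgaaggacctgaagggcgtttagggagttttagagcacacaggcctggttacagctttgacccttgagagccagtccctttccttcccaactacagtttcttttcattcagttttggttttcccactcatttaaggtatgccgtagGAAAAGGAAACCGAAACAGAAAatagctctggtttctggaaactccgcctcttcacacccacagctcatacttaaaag
Ifit1 (chr19:34640639-34640888, plus strand): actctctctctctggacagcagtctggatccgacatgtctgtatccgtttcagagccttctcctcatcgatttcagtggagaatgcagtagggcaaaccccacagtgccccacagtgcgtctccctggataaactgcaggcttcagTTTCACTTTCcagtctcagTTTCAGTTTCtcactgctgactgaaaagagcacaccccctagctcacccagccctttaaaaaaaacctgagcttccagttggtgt
Rsad2 (chr12:26456453-26456702, minus strand): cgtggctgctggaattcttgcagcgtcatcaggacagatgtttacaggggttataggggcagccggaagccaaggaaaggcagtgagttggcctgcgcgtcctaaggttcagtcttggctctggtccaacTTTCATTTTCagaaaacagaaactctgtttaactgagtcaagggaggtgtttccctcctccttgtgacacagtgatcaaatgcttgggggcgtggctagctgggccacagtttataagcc
Gbp2 (chr3:142620413-142620662, plus strand): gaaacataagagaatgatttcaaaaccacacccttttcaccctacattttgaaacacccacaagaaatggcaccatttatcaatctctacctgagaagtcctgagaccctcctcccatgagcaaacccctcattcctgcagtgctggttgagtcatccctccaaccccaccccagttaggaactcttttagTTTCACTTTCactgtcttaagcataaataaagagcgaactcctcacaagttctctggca
Cxcl9 (chr5:92328080-92328329, minus strand): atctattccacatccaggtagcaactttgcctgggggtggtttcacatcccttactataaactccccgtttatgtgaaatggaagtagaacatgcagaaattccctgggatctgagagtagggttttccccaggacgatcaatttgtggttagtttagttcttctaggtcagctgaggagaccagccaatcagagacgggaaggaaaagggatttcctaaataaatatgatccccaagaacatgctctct
Cxcl10 (chr5:92348890-92349139, minus strand): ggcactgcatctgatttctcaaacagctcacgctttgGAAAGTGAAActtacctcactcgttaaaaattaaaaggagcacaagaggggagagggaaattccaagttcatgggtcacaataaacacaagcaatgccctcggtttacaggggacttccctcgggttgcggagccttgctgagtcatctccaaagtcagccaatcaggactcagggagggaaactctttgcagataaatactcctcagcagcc
Tap1 (chr17:34187306-34187555, plus strand): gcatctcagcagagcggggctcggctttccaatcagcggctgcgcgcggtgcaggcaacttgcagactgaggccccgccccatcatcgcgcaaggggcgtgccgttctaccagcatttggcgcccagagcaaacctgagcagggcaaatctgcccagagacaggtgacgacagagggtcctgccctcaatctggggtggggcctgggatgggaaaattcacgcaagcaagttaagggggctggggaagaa
Isg15 held 3 overlapping cores that began 78, 72 and 66 bases before the start, and Ifit1 held 2 that began 104 and 85 bases before it. The single cores of Rsad2, Gbp2 and Cxcl10 began 120, 59 and 213 bases before the start. Neither motif occurred in the Cxcl9 and Tap1 windows, which says only that these letters are absent from the bases searched. A match is a run of letters and not a measured binding site.

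A level is given below as the log2 processed signal minus the 75th percentile of log2 signals on its array, and a difference as the level on the array labelled Rac1Rac3-DKO (the DKO-labelled array) minus that on the Rac3-KO array. The error beside a difference is the signal error of the scanner software on the log2 scale. It covers the spot on these arrays and no variation between cultures or animals. Precision here is limited by how few arrays there were, 1 per label. A probe is called detected where the scanner software scored it well above background: 56.9% and 52.9% of the 55678 probes were detected, in the order Rac3-KO and DKO-labelled, and no spot was saturated. The 75th percentile of the signal was 705 and 354, a shift of -0.99 (log2), while 8 spike-in probes shifted by 1.06 the other way. Rac1 did not separate the arrays as labelled: its processed signals were 19847 and 12140, a difference of 0.28 ± 0.20 after scaling. Rac3 was detected on both arrays with signals of 99.8 and 59.1. Where these probes lie relative to the deleted exons is not given in the sources used here, so they may check nothing. Keratinocyte markers were present on both arrays and were lower on the DKO-labelled array, and markers of connective tissue and muscle were bright on both. All values therefore describe mixed RNA, in which fewer cells of a type and less RNA per cell cannot be told apart.

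Relative to the 75th percentile, interferon-stimulated genes were mostly higher on the DKO-labelled array, and their median turned below 0 on the spike-in scale and with no scaling. Of the 37 measured members, 34 (91.9%) had a difference above 0, where 49.4% of all 14144 measured genes did. The threshold of 2-fold was passed upward by 10 members (27.0%), against 7.71% of all measured genes, and downward by 0, against 6.62%. Their median difference was 0.61, and the median over all measured genes was -0.01. The interquartile range of the members ran from 0.45 to 1.01, and the extremes were -0.54 for Ifi44 and 1.57 for Cxcl9. A difference beyond the 95% interval of its signal error was seen upward in 30 members and downward in 1, and 6 lay within that interval. Over all measured genes 24.2% passed that rule upward and 24.3% downward. At 1.5-fold 21 members were higher and 0 lower, where 18.2% and 16.5% of all measured genes were, and at 3-fold 0 members passed either way, against 2.29% and 2.23%. On the spike-in scale the median of the members was -1.44 and that of all genes -2.06.

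**Figure D1:**
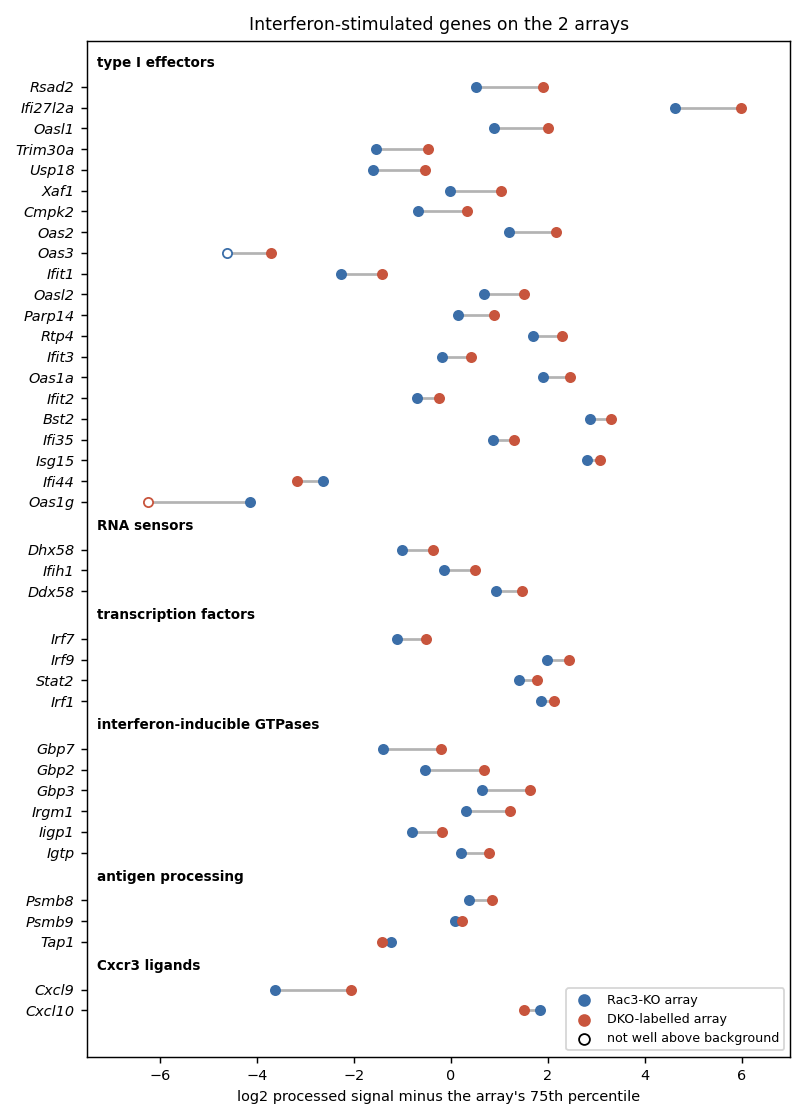
Level of each interferon-stimulated gene on the Rac3-KO array (blue) and the DKO-labelled array (red), as log2 processed signal minus the 75th percentile of the array, 1 array each; open symbols were not detected above background. The red symbol lies to the right of the blue one for 34 of the 37 genes measured on both arrays, and Ifi44, Tap1 and Cxcl10 are the exceptions; on the spike-in scale and with no scaling the median of these differences is below 0.

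Before any scaling the picture was different. The processed signal of most genes was lower on the DKO-labelled array, and just 7.82% of measured genes (1106 of 14144) had the brighter signal there. Among the members 10 of 37 (27.0%) had it, and the other 27 were dimmer. These 10 are the members that passed 2-fold after scaling, because the shift between the 75th percentiles is close to 2-fold. In raw signal the members as a group were thus dimmer on the DKO-labelled array, with a median of -0.38 (log2), and dimmed less than the typical gene, whose median was -1.0. The gap between those medians was 0.62, and scaling by spike-ins or by the median, which subtracts a constant from each array, leaves this gap as it is.

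**Figure D2:**
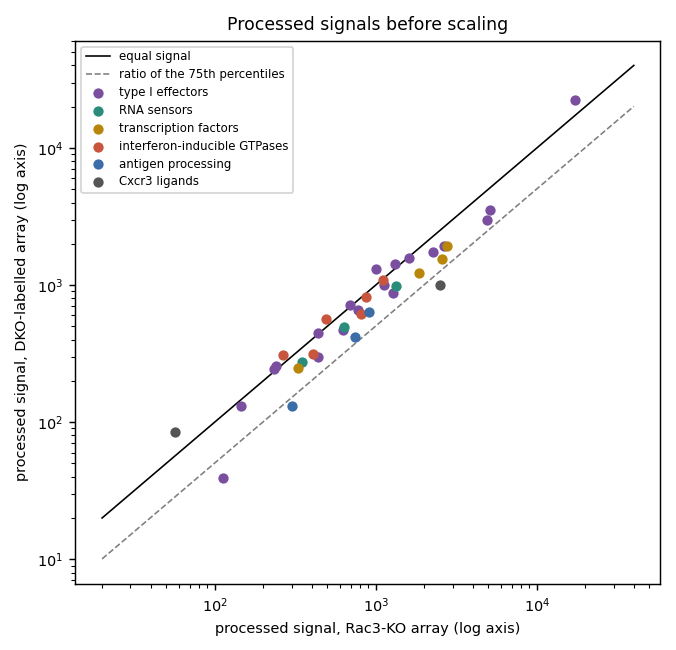
Processed signal of the 37 measured members on the Rac3-KO array (x, log axis) and the DKO-labelled array (y, log axis), coloured by role. The solid line marks equal signal and the dashed line the ratio of the 75th percentiles; 34 points lie above the dashed line and 10 above the solid line.

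The type I effectors, the proteins that block viral replication in the responding cell, made up the largest group. Of 19 measured, 7 (36.8%) were at least 2-fold higher and 0 lower, with a median of 0.82. The shares of all measured genes were 7.71% and 6.62%. Rsad2, which encodes viperin, an enzyme that makes a chain-terminating nucleotide, had signals of 1005 (Rac3-KO) and 1312 (DKO-labelled) and was 2.60-fold higher after scaling (1.38 ± 0.20). Its neighbour Cmpk2, a mitochondrial nucleotide kinase, had signals of 439 and 444 and was 2.01-fold higher (1.01 ± 0.21). No other protein-coding gene lies between these 2 genes in the RefSeq order, and both were among the 10. A second Cmpk2 probe gave 1.35. Ifi27l2a, a small interferon-induced membrane protein, had the signals 17362 and 22350, a difference of 1.36 ± 0.20, which is 2.56-fold.

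The ubiquitin-like modifier system was not uniform. Isg15, the modifier that is joined to proteins in the interferon response, had signals of 4900 and 2972 and differed by 0.27 ± 0.20, within the 95% interval of its error, and its second probe by 0.15. Usp18, the protease that removes Isg15 and also damps the type I receptor, had signals of 232 and 243 and was 2.08-fold higher (1.06 ± 0.21). The gap between them, 0.27 against 1.06, was not tested. Trim30a, of the tripartite motif family, and Xaf1, which promotes cell death, were likewise just past the threshold. Trim30a had signals of 241 and 255 (2.10-fold higher) and Xaf1 of 695 and 721 (2.06-fold higher).

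The 2′-5′ oligoadenylate synthetases make the messenger that switches on RNase L, and Oasl1 is a relative without that activity. Oasl1 had signals of 1311 and 1417 and was 2.15-fold higher (1.11 ± 0.20). Oasl2, next to it in the genome, had 1131 and 1004 and was 1.77-fold higher (0.82 ± 0.20). Oas2, with 1615 and 1585, lay just below the threshold at 1.95-fold higher. Oas1a differed by 0.54 ± 0.20 at its brighter probe and 0.74 at the other. Oas3 and Oas1g were near the floor of the arrays. Oas3, with signals of 28.7 and 27.1, was detected on the DKO-labelled array alone (as 1.14% of all genes were). Its difference after scaling was 0.91 ± 0.44, which is 1.88-fold. That fold is not a minimum, since the undetected Rac3-KO signal lay above the lowest detected signal there, 23.4. Oas1g, with 39.9 and 4.64, was detected on the Rac3-KO array alone (4.26% of all genes) and was too dim for a fold. The Oas1 genes are near-identical copies, so which copy a signal comes from is uncertain.

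Ifit proteins bind viral RNA ends. Ifit1 had signals of 145 and 132 (0.85 ± 0.21), Ifit2 436 and 299 (0.45 ± 0.21), and Ifit3 623 and 469 (0.58 ± 0.20). All were higher after scaling and none reached 2-fold, beside 49.4% of all measured genes above 0 and 7.71% past 2-fold upward. Ifit3 has the close copy Ifit3b, whose own probe differed by 1.02. Of the remaining effectors, Parp14, an ADP-ribosyl transferase, differed by 0.74, Rtp4, a receptor chaperone, by 0.61, Bst2 (tetherin, which holds virus particles at the membrane) by 0.44, and Ifi35 by 0.44. Ifi44 was the exception among the effectors: its signals were 113 and 39.3 and its difference -0.54 ± 0.27, 1.45-fold lower. That value rests on the background correction, since normexp correction gave 0.03.

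**Figure D3:**
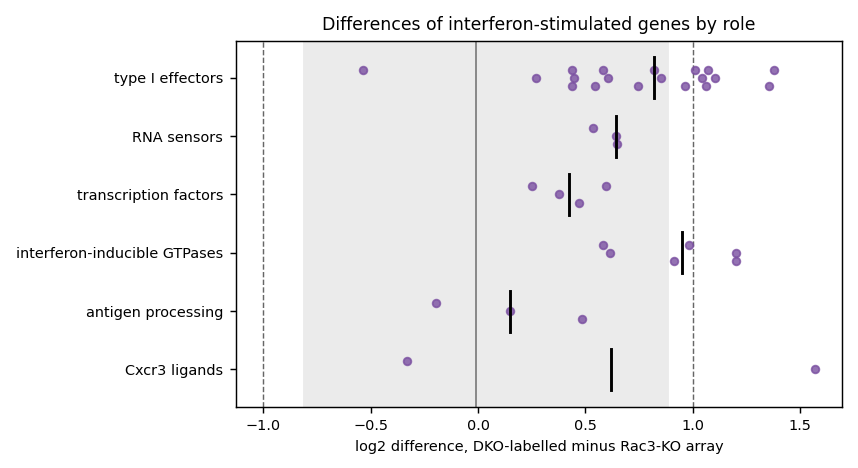
Log2 difference, DKO-labelled minus Rac3-KO array, of each member measured on both arrays, by role; black bars are medians, dashed lines mark 2-fold, the grey band runs from the 10th to the 90th percentile of all measured genes (-0.81 to 0.88) and the grey line is their median. The GTPases lie at 0.58 to 1.20 and the antigen processing genes at -0.20 to 0.48.

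Interferon-inducible GTPases, which attack the vacuoles that hold intracellular microbes, had the highest median of the roles with at least 3 measured genes, 0.95, with 6 of 6 above 0 and 2 at least 2-fold higher. Gbp2 had signals of 488 and 564 and was 2.30-fold higher (1.20 ± 0.20), and Gbp7 had 267 and 309 and was 2.30-fold higher (1.20 ± 0.21). Gbp3, which sits between them in the cluster, had 1104 and 1097 and missed the threshold at 1.98-fold (0.98 ± 0.20). Gbp2, Gbp3 and Gbp7 thus lay within 0.22 of each other. The immunity-related GTPases spread over 0.58 to 0.91. Irgm1, a regulator of the family, was at the top of these (0.91, and 0.93 at its second probe), followed by Iigp1 (0.61 and 0.64) and Igtp (0.58). Further GTPases of a fixed list gave a lower picture: of 8 measured, 6 were above 0 and 0 passed 2-fold in either direction, with a median of 0.45, from -0.52 for Gbp4 to 0.98 for Irgm2. Over all measured genes 49.4% were above 0, and 7.71% passed 2-fold upward and 6.62% downward. Members of these GTPase families have similar copies, and cross-hybridisation between them was not tested.

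The sensors of viral RNA were higher by close amounts. Ifih1, which encodes Mda5 and reads long double-stranded RNA, had signals of 636 and 498 (0.64 ± 0.20). Ddx58, which encodes Rig-I and reads RNA ends, had 1344 and 981 (0.54 ± 0.20), and its dimmer probe gave 0.31. Dhx58, the regulator Lgp2, had 348 and 274 (0.65 ± 0.21). Each exceeded the 95% interval of its error and none reached 2-fold. Among all measured genes 24.2% exceeded that interval upward and 7.71% reached 2-fold upward. Upstream genes that sense nucleic acid or pass the signal on had a median of 0.30: of 14 measured, 10 were above 0, 2 were at least 2-fold higher and 1 lower, beside the 7.71% and 6.62% of all measured genes. Zbp1, a sensor of Z-form nucleic acid that is itself induced by interferon, differed by 1.54, and Tlr7, the endosomal receptor for single-stranded RNA, by 1.45. Ikbke, a kinase that phosphorylates Irf3 and Irf7, differed by -1.11.

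The transcription factors of the response were all above 0 and below 2-fold. Irf7, the factor that amplifies type I interferon transcription, had signals of 327 and 249 (0.59 ± 0.21). Irf9 and Stat2, the DNA-binding and activating subunits of the type I complex, had 2762 and 1921 (0.47 ± 0.20) and 1861 and 1216 (0.38 ± 0.20). Irf1, an early target of interferon gamma, had 2565 and 1536 (0.25 ± 0.20). Of the 4, Irf7 and Irf9 exceeded the 95% interval of their error, and 0 reached 2-fold. Among all measured genes 49.4% were above 0, 24.2% exceeded that interval upward and 7.71% reached 2-fold upward. The median of 0.42 stands beside 0.82 for the type I effectors; the gap was not tested.

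Antigen processing had the lowest median of the roles, 0.15. Psmb8 and Psmb9 are the catalytic subunits that replace constitutive ones in the immunoproteasome, and Tap1 carries the peptides into the endoplasmic reticulum. Psmb8 had signals of 906 and 637 and differed by 0.48 ± 0.20, Psmb9 744 and 415 (0.15 ± 0.20), and Tap1 300.2 and 132 (-0.20 ± 0.21). The last 2 lay within the 95% interval of their error, and they lie next to each other: their 300-base RefSeq windows share 275 bases, so the Tap1 promoter printed above covers most of that of Psmb9 as well. The constitutive subunits Psmb5, Psmb6 and Psmb7 differed by 0.09, 0.16 and -0.13. Of 15 further genes of antigen processing and MHC class I, 10 were above 0 and 0 were 2-fold apart in either direction. Over all measured genes 49.4% were above 0, and 7.71% passed 2-fold upward and 6.62% downward. The median of the 15 was 0.10, from -0.65 for the peptide-trimming protease Erap1 to 0.80 for B2m, the light chain of MHC class I.

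Cxcl9 and Cxcl10, chemokines that call T cells and NK cells through the receptor Cxcr3, went in different directions although 1 protein-coding gene separates them in the genome. Cxcl9, the one more tightly tied to interferon gamma, had signals of 57.0 and 85.0 and was 2.97-fold higher (1.57 ± 0.26). Cxcl10 had 2510 and 1002 and was 1.26-fold lower (-0.33 ± 0.20), within the 95% interval of its error. The Cxcl9 signals are close to the lowest detected signals, 23.4 and 20.1, and its second probe, with 64.4 and 50.4, gave 0.64. The mean over its probes was 1.1, and that with normexp correction 1.16. The separation of the 2 chemokines was 1.90 at the Cxcl9 probe used, and it was the widest among the 9 pairs of nearby members with both values; the other 8 pairs lay 0.14 to 0.68 apart. Cxcr3 itself differed by 0.94.

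Members that are close in gene order, with at most 3 protein-coding genes between them, can be set side by side. Ifit2 and Ifit3 were 0.14 apart, Gbp7 and Gbp3 0.22, Gbp3 and Gbp2 0.22, Ifit3 and Ifit1 0.27, Oasl2 and Oasl1 0.28, Psmb9 and Tap1 0.35, Rsad2 and Cmpk2 0.37, and Tap1 and Psmb8 0.68. These pairs are also related by sequence or role, and position was not separated from that. For 7 members a second probe was detected on both arrays, and the probes of a gene lay 0.02 to 0.93 apart (median 0.20). Across all 3578 genes with several such probes the SD between probes was 0.19 at the median and 0.38 as the root mean square. Repeated spots of a probe (273 probes with at least 8 spots) had a median SD of 0.09. The 5 members that passed 2-fold by the least, from Cmpk2 at 1.01 to Oasl1 at 1.11, and the 2 that missed it by the least, Gbp3 at 0.98 and Oas2 at 0.97, are therefore not separated by these errors.

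Members with and without the ISRE core overlapped. The 14 measured members with the core had a median difference of 0.72, from -0.33 for Cxcl10 to 1.38 for Rsad2, and 4 of them were at least 2-fold higher. The 16 without it had a median of 0.51, from -0.54 for Ifi44 to 1.57 for Cxcl9, and 4 were at least 2-fold higher. Isg15, whose window held the most cores, differed by 0.27. For GAS the order was the other way: 0.48 over the 7 members with the motif and 0.64 over the 23 without it.

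The genes that make and receive interferon were examined from lists. Of 16 interferon ligand genes with a probe, 10 were detected on neither array, Ifnb1 and Ifng among them, and 4 were measured on both. Of all 20144 genes with a matched probe, 14144 were measured on both arrays. The 4 ligand genes so measured, Ifna1, Ifna5, Ifna14 and Ifnl3, were dim and differed by 0.26 to 0.69. Ifnk, the interferon of keratinocytes, was detected on the Rac3-KO array alone, with signals of 57.1 and 4.20, which gives at least 1.43-fold lower in the other. Ifnab was detected likewise, with signals of 56.6 (Rac3-KO) and 20.5 (DKO-labelled). Its difference after scaling was -0.48 ± 0.40, which is 1.39-fold and not a minimum, since 20.5 lay above the lowest detected signal there, 20.1. The type I and type II receptor chains were all above 0: Ifnar1 0.30, Ifnar2 0.52, Ifngr1 0.86 and Ifngr2 0.43. Ifnlr1, the epithelial receptor chain for interferon lambda, had signals of 892 and 186 and was 2.41-fold lower (-1.27 ± 0.21), while its partner Il10rb differed by 0.51. Among the receptor kinases, Jak1 differed by 0.65, Jak2 by 0.20 and Tyk2 by -0.18. Inhibitors of the pathway had a median of 0.07 over 8 genes, from -0.59 for the phosphatase Ptpn2 to 0.64 for Irf2. Of the 8, 0 were 2-fold apart, beside 7.71% of all measured genes upward and 6.62% downward.

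A further list of interferon-induced effectors outside the 41 was examined as well. Of 32 measured, 27 were above 0, and 5 (15.6%) passed 2-fold upward and 0 downward, with a median of 0.55. Over all measured genes 49.4% were above 0, and 7.71% passed 2-fold upward and 6.62% downward. The 5 past 2-fold were Slfn2 (1.75), Ifi204 (1.36), Lgals3bp (1.03), Ifit3b (1.02) and Phf11b (1.02). Slfn5, with signals of 12.4 and 49.6, was detected on the DKO-labelled array alone, as 1.14% of all genes were. After scaling it was higher by at least 4.22-fold, from a signal 2.47 times the lowest detected one on that array. The lowest was Oas1f at -0.86, with signals of 3424 and 947.

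Markers of several cell types moved between the same arrays. The counts below stand beside the 7.71% of all measured genes that passed 2-fold upward and the 6.62% that passed it downward. Of 15 measured keratinocyte markers 12 passed 2-fold downward and 0 upward (median -1.67); the processed signal summed over the list was 780972 on Rac3-KO and 115738 on the other array, and Krt5 and Perp were the brightest. Of 12 macrophage and monocyte markers 7 passed 2-fold upward and 0 downward (median 1.17); their summed signal was 43988 and 54146, 12 of 12 were detected on both arrays, and Csf1r and Itgam were the brightest. For 9 measured T and NK cell markers the median was 0.50, with 1 past 2-fold upward and 2 downward and summed signals of 6348 and 4456, while Cd8a, Klrb1c and Ncr1 were detected on neither array. The plasmacytoid dendritic cell list, which shares Bst2 with the members, had a median of 0.44 over 5 genes. The 1 past 2-fold was Cox6a2 (2.92), which encodes the heart and muscle form of a cytochrome oxidase subunit, and the other 4 ran from -0.06 to 0.69. The summed signals of this list were 126644 and 97833. Most of each sum came from the single gene Siglech, with 106725 and 69286, and Cox6a2 had 5318 and 20241. Ccr9 and Klk1 were detected on neither array. Endothelial, fibroblast and pan-leukocyte markers had medians of 0.60 (2 of 7 at least 2-fold higher, summed signals 13450 and 12957), 0.79 (2 of 8, 1058470 and 935391) and 0.55 (1 of 5, 8123 and 6022). Skeletal muscle markers had the highest median, 2.60 (9 of 10, 229746 and 672102). The part of these cells in the differences of the interferon-stimulated genes was not tested.

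**Figure D4:**
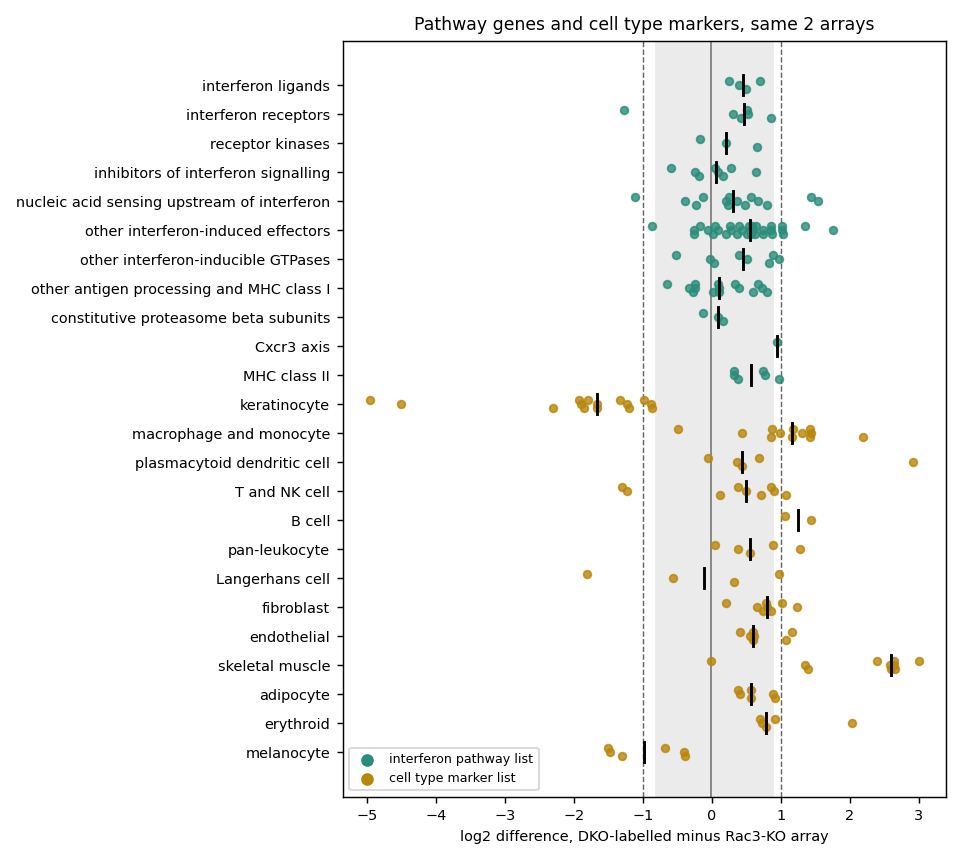
Log2 difference, DKO-labelled minus Rac3-KO array, of each gene measured on both arrays in the interferon pathway lists (green) and cell type marker lists (gold); black bars are medians, dashed lines 2-fold, and the grey band the 10th to 90th percentile of all measured genes. Keratinocyte markers have a median of -1.67, macrophage and monocyte markers 1.17, and the further interferon-induced effectors 0.55.

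**Figure D5:**
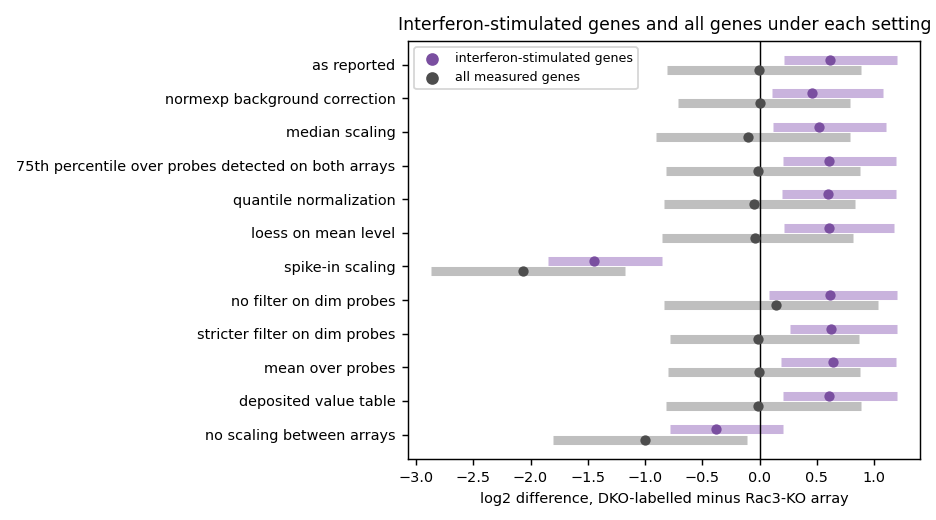
Median (dot) and 10th to 90th percentile (bar) of the log2 difference, DKO-labelled minus Rac3-KO array, for interferon-stimulated genes (purple) and all measured genes (grey) under each processing setting. The purple dot lies right of the grey one in each row, at 0.61 against -0.01 as reported and at -1.44 against -2.06 on the spike-in scale. Median, percentile, spike-in and no scaling and the deposited table differ from the reported setting by a constant per array. The gap between the dots is therefore 0.62 in those rows by construction, and they are not separate checks of it.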

How the data were processed

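Gene expression was measured on 2 arrays of 1 slide read in the same scan, 1 per genotype label. The deposited scanner files hold spot intensity from Agilent Feature Extraction 10.10.1.1, background-subtracted and detrended within each array, per the file headers. Version 9.1 is the one in the submitters' processing notes. The authors' deposited table holds log2 values: it equals the log2 processed signal minus 1 constant per array for 100% of probes spotted once, within 0.001, so scale and centring are known (column medians -3.72 and -3.62), and 1-colour levels need no direction.

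Control spots and 155 and 190 outlier spots were left out, the log2 signals of repeated spots were averaged, and the 75th percentile of the array was subtracted. Accessions without versions were matched to RefSeq transcripts (GRCm38.p6), which named 26580 of 55678 probes; the array design refers to mm9, so no array coordinate is printed. The probe with the highest mean level stood for its gene, and the gene was measured if both arrays detected that probe. For genes detected on 1 array, an at-least fold compares the bright level with the dim probe's level or the lowest detected level, whichever is higher. Where the dim probe's level was the higher, as for Oas3, Ifnab and Ciita, the plain difference is given instead. Python 3.11.15, R 4.3.3 and limma 3.58.1 (normexp with an offset of 50, quantile and loess) were used, and the calls were checked on simulated arrays. The scanner files hold median and not mean spot signals, so normexp used the median.

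The members and lists were chosen with earlier results of these data known. Some list genes are not reported here. Members were named freely; of a fixed list, up to 2 genes each way past 2-fold, or the extremes where there were none, all genes of lists of up to 6, and the 2 brightest markers. Ifnb1, Ifng, Ifna1, Ifna5, Ifi204, Lgals3bp, Ifit3b, Phf11b, Oas1f, Cox6a2 and the markers given as not detected were named after their values were seen. Alternatives were other background corrections, scalings, filters, probe rules, fold thresholds and the deposited table.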

Additional observations from a re-analysis of the deposited data

How the results depend on the processing

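With 1 array a genotype, no replicate could be left out, and no paired analysis was possible because each genotype has a single array. The median of all members kept its direction, between 0.46 and 0.64, under normexp, median, percentile, quantile and loess settings, both filters, the probe mean, the deposited table and without Bst2. The count at least 2-fold higher was 6 with normexp (without Cmpk2, Oasl1, Trim30a and Xaf1), where 5.44% of all genes passed. It was 6 with median scaling (without Cmpk2, Trim30a, Usp18 and Xaf1), where 6.3% passed. The count higher was 21 at 1.5-fold and 0 at 3-fold, where 18.2% and 2.29% of all genes passed. At 2-fold it was 0 on the spike-in scale, where 0.099% of all genes passed. It was 0 with no scaling, an alternative added after seeing the data, where 1.27% passed. The count at least 2-fold lower was 29 on the spike-in scale, where 93.1% of all genes passed. It was 3 with no scaling, where 7069 of 14144 genes passed. With no filter on dim probes it was 1 (Oas1g), where 7.55% passed. On the spike-in scale the medians were -1.44 for all members, -1.23 for type I effectors, -1.41 for RNA sensors, -1.63 for transcription factors, -1.11 for GTPases and -1.91 for antigen processing. With no scaling they were -0.38, -0.17, -0.35, -0.57, -0.044 and -0.84 in the same order. Normexp gave 0.41 for RNA sensors; the cause was not tested. The spike-in scale subtracts 1 larger constant, and 0 of the 37 measured members were above 0 there, against 34 as reported; of the 10 at least 2-fold higher as reported, the values were Usp18 (-0.995), Oasl1 (-0.95), Rsad2 (-0.68), Cmpk2 (-1.05), Ifi27l2a (-0.70), Xaf1 (-1.01), Trim30a (-0.98), Gbp2 (-0.85), Gbp7 (-0.85) and Cxcl9 (-0.49). Signal over background limits Oas1g, Oas3, Cxcl9, Ifi44, Slfn5, the interferon ligands and, below, Ciita.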

Other observations

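MHC class II genes, which present peptides to helper T cells and answer to interferon gamma through the coactivator Ciita, were above 0 in 6 of 6 measured cases, with a median log2 difference of 0.56 and 0 at least 2-fold apart. They ran from 0.33 for H2-Ab1 to 0.97 for Cd74, the invariant chain. Over all measured genes 49.4% were above 0, 7.71% passed 2-fold upward and 6.62% downward. Ciita itself, with processed signals of 23.5 (Rac3-KO) and 49.4, was detected on the DKO-labelled array alone, as 1.14% of all genes were. Its difference after scaling was 2.06 ± 0.44, which is 4.18-fold and not a minimum. The Rac3-KO signal was at the floor, where the lowest detected signal was 23.4. The Langerhans cell list, which shares Cd74 and H2-Ab1 with these genes, had a median of -0.12 over 4 measured genes. Of its other genes, Epcam differed by -1.81 and Cd1d1 by -0.57, and Cd207 was detected on neither array. The B cell markers Cd79a and Cd79b differed by 1.44 and 1.06, while Ms4a1 and Pax5 were detected on neither array.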
